A study of Homo sapiens with 4 samples.

Results

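The ATF4-CHOP stress regulators are 10 genes, ATF4, ATF5, ATF3, DDIT3, TRIB3, CHAC1, SESN2, DDIT4, JDP2 and CEBPB, of the 28775 genes counted in HEK293T cells. They were taken by name. The set was chosen by the contrast of MORC2 KO against WT itself, because JDP2 is higher in MORC2 KO while DDIT3, which encodes CHOP, is not. The values of the 10 genes in that contrast are therefore a description and carry no test. HEK293T is a human embryonic kidney line that carries the SV40 large T antigen. Polyadenylated RNA was sequenced from 2 WT libraries and 2 MORC2 KO libraries, and no other treatment is given. The knockout populations were made by electroporating Cas9 protein with gRNA 1 or gRNA 2 and were kept in bulk without cloning. The knockout library of gRNA 1 is replicate 1 and is called KO1, that of gRNA 2 is replicate 2 and is called KO2, and the WT libraries are called WT1 and WT2. The guide and the replicate number therefore cannot be told apart, and neither can a change in a share of the cells and a change in every cell. The methods name HEK293 cells at the electroporation step, whereas the labels give HEK293T throughout.

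ATF4 is a bZIP transcription factor whose mRNA is translated more when the initiation factor eIF2 is phosphorylated by a stress kinase, as in amino acid shortage, haem shortage, viral infection or unfolded protein in the endoplasmic reticulum. This is the integrated stress response. ATF4 binds DNA with C/EBP partners at composite elements and switches on other bZIP factors, among them ATF3, ATF5 and CHOP, as well as effectors such as TRIB3, CHAC1, SESN2 and DDIT4 and the enzymes and transporters of amino acid supply. Since ATF4 is controlled largely through translation, its mRNA level does not report the amount of the protein.

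The sequences next to the starts of JDP2 and DDIT3 are shown because these genes define the contrast, and those of CHAC1 and ATF3 because they hold a related motif. RefSeq promoter windows of GRCh38.p14, which run from 250 bases before to 50 bases after each annotated start, were found for 10 of the 10 genes (20 windows). Capitals mark TGATGCAA, the core of the element bound by ATF4 with a C/EBP partner, its looser form TGATGNAA, or TGACGT, part of the site bound by ATF, CREB and JUN dimers, on either strand. TGATGCAA is contained in the looser form. The JDP2 stretch is chr14:75427902-75428021 on the plus strand and the DDIT3 stretch is chr12:57520518-57520637 on the minus strand, each the 120 bases before a start. Of the 3 windows of JDP2, the one that holds TGATGCAA was taken. The DDIT3 stretch holds none of these motifs. The CHAC1 stretch (chr15:40953251-40953280) and the ATF3 stretch (chr1:212565205-212565234) are the 30 bases around the match on the plus strand.
JDP2: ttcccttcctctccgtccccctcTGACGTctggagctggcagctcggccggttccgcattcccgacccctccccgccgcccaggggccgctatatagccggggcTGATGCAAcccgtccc
DDIT3: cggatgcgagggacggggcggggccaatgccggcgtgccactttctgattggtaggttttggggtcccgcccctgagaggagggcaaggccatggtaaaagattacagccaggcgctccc
CHAC1: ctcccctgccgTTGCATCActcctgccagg
ATF3: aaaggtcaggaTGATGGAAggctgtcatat

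TGATGCAA was found in 1 of the 3 windows of JDP2, 16 bases before that start. It was also found in the 1 window of CHAC1, 209 bases before the start and on the reverse strand. GENCODE 29 places that CHAC1 stretch in an exon of CHAC1. JDP2 and CHAC1 are 2 of the 10 genes, and TGATGCAA was present in 1.08% of the 27305 genes that have a window (0.866% of all 35116 windows). The looser TGATGNAA added ATF3, for 3 of the 10 genes, and was present in 4.46% of all genes. With 1 more fixed base, as TGATGNAAT, it was found in none of the 10 genes and in 1.22% of all genes. TGACGT was found in JDP2 alone of the 10 genes, 97 bases before a start, and in 9.64% of all genes, whereas its palindromic extension TGACGTCA was found in none of them and in 2.25% of all genes. CCAAT, a common promoter box, was found in 6 of the 10 genes, DDIT3 among them, and in 39.7% of all genes. By windows, CCAAT was in 8 of the 20 of these genes and in 34.6% of all. These are matches of letters, not sites at which binding was measured. Sequence outside the windows was not searched, so a gene without a match here, DDIT3 among them, may hold one farther from its start.

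The libraries held between 53970043 and 64312514 counted read pairs, and the 10 genes had between 402 and 54442 counts per library. MORC2 itself fell to 61.1% of its WT level. It had 51.2 and 55.0 CPM (counts scaled to library size with TMM factors) in KO1 and KO2 and 86.2 and 87.7 in WT1 and WT2, a log2 fold change of -0.71 ± 0.06 (SE) with an adjusted p of 1.37e-04 (edgeR quasi-likelihood F-test). MORC2 shares 23.3% of its exonic bases with MORC2-AS1 on the other strand. The level of mRNA does not measure how many alleles carry a frameshift. The study measured the efficiency of knockout at the protein level, by western blot for MORC2 in the populations of both guides. Of 10 markers of HEK293 cells, 8 were at 1 CPM or more in every library, and LHX1 and NEFH were below that in each. Of 10 markers of blood, endothelium, fibroblasts, epithelium, liver, muscle and glia, COL1A1 alone reached 1 CPM in every library, and the 10 summed to 4.07 to 4.13 CPM in MORC2 KO and 4.42 to 5.23 CPM in WT, with PTPRC and CD3E at no more than 1 count. KO2 stood farther from the rest. Its median absolute log2 difference over the 16675 genes tested was 0.120 to KO1 and 0.142 and 0.163 to the WT libraries, against 0.0758 between the WT libraries. KO1 was at 0.0880 to WT1 and 0.0882 to WT2, so it lay nearer to both WT libraries than to KO2. The WT libraries are given as independent replicates with no word on separate cultures, so p-values measure the spread between these samples only.

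Of the 10 regulators, JDP2, CHAC1, SESN2, TRIB3, DDIT4 and CEBPB had both MORC2 KO libraries above both WT libraries, and none had both below. ATF4, ATF5, ATF3 and DDIT3 had overlapping groups. Both MORC2 KO libraries lay above both WT libraries in 24.1% of the 16675 genes tested and below them in 23.4%. Genes were called at an adjusted p under 0.05 in the edgeR test. JDP2 was the 1 member called higher and no member was called lower, where the share of all tested genes called was 0.588% higher and 0.0300% lower. Without WT2, CHAC1 was called and JDP2 was not. Because this contrast chose the set, nothing is read from these counts. The median log2 fold change of the 10 genes was 0.178, against 0.005 over all genes tested. It was 0.173 for KO1 alone and 0.171 for KO2 alone, each against the same mean of the WT libraries.

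**Figure D1:**
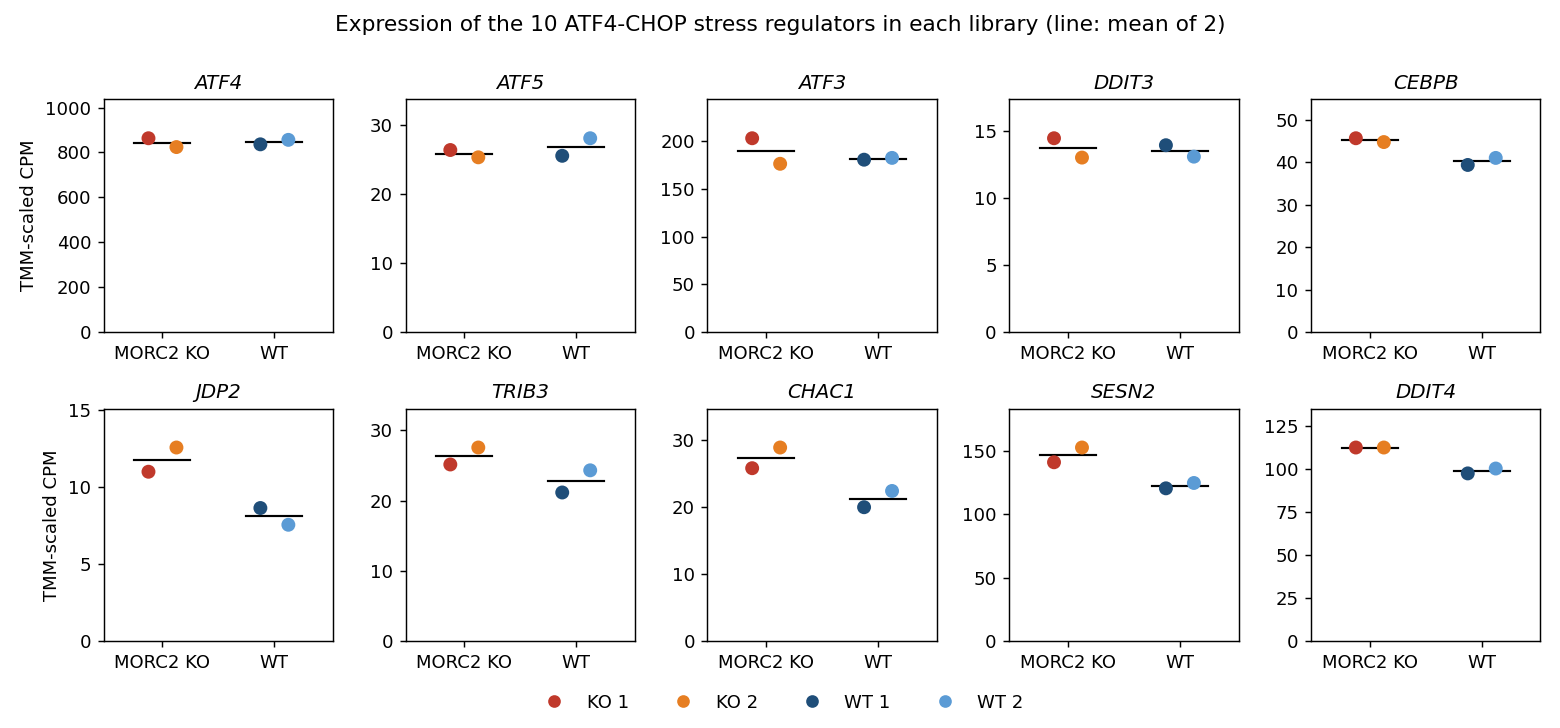
TMM-scaled CPM of the 10 regulators in each library, with 1 panel per gene, MORC2 KO and WT on the x axis, a point for each library and a line at the mean of 2. JDP2, CHAC1, SESN2, TRIB3, DDIT4 and CEBPB have both MORC2 KO points above both WT points, and the points of ATF4, ATF5, ATF3 and DDIT3 overlap.

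JDP2 encodes a small bZIP repressor that pairs with JUN and ATF proteins and binds the same sites as ATF3. The gene lies on chr14:69637134-69683532 of T2T-CHM13v2.0, the assembly of the count table, with 7 exons that no other gene overlaps. It had 10.99 CPM in KO1, 12.56 in KO2, 8.638 in WT1 and 7.553 in WT2, from 657, 830, 514 and 402 counts. Both knockout libraries were above both WT libraries, and the gap between the groups exceeded the difference between the WT libraries. The means were 11.8 ± 1.11 CPM in MORC2 KO and 8.09 ± 0.767 in WT (SD, n = 2), a 1.45-fold difference, or 0.54 ± 0.11 (SE) on the log2 scale. Against the mean of the WT libraries, the log2 difference was 0.44 for gRNA 1 and 0.64 for gRNA 2. Counting error alone was 3.47% to 4.99% of each count and does not cover the variation between cultures. Over 12 alternatives the log2 fold change of JDP2 lay between 0.44 and 0.64.

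DDIT3 encodes CHOP, a C/EBP family bZIP factor that is associated with cell death under lasting stress and is a common marker of the response. It lies on the minus strand of chr12:57484816-57488745, and 14.4% of its exonic bases are shared with MARS1, on the other strand, or LOC128125814. The counting left out read pairs that overlap several genes, so part of DDIT3 could not be counted. DDIT3 had 14.43 CPM in KO1, 12.99 in KO2, 13.91 in WT1 and 13.06 in WT2, from 863, 858, 828 and 695 counts. The groups overlapped, and the knockout libraries were the highest and the lowest of the 4. The log2 fold change was 0.022 ± 0.088 (SE), with 0.098 for gRNA 1 and -0.054 for gRNA 2. Over 12 alternatives the log2 fold change of DDIT3 lay between -0.069 and 0.098, with the sign of the main value in 9. Counting error alone was 3.40% to 3.79% of each count.

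Set against DDIT3 within each library, where scaling has no part, JDP2 had 76.1 and 96.7 counts per 100 counts of DDIT3 in KO1 and KO2, and 62.1 and 57.8 in WT1 and WT2. Since the set was chosen because JDP2 is higher and DDIT3 is not, these ratios restate that choice. Per 100 counts of ATF3, the relative with which JDP2 shares binding sites, JDP2 had 5.41 and 7.12 in KO1 and KO2 against 4.78 and 4.14 in WT1 and WT2. Per 100 counts of ATF4 it had 1.27 and 1.52 in KO1 and KO2 against 1.03 and 0.882 in WT1 and WT2. These ratios reuse the same JDP2 values and are no further support. CHAC1 had 179 and 222 counts per 100 of DDIT3 in KO1 and KO2 against 143 and 171 in WT1 and WT2, which were also apart. TRIB3 had 174 and 212 in KO1 and KO2 against 152 and 186 in WT1 and WT2, so the TRIB3 ratios overlapped although its CPM values did not.

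ATF4 was the highest of the 10 genes in every library. It lies on chr22:39991189-39993317 and had 863 CPM in KO1, 824 in KO2, 836 in WT1 and 856 in WT2. The WT libraries lay between the knockout libraries. With 45568 to 54442 counts, counting error was at most 0.468%, which is below the spread between the WT libraries. The log2 fold change was -0.004 ± 0.066 (SE), and between -0.052 and 0.089 over 12 alternatives.

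ATF5, a close relative of ATF4 that is also controlled through translation and acts in the mitochondrial stress response, had 26.4 and 25.4 CPM in KO1 and KO2 and 25.6 and 28.1 in WT1 and WT2. The groups overlapped, and the log2 fold change was -0.053 ± 0.071 (SE). ATF5 shares 6.5% of its exonic bases with other genes, among them NUP62 and IL4I1 on the opposite strand. ATF3, an early stress-induced bZIP factor that mostly represses transcription, had 203 CPM in KO1, 176 in KO2, and 181 and 183 in the WT libraries. The knockout libraries lay on either side of WT, with log2 differences from the WT mean of 0.161 for gRNA 1 and -0.042 for gRNA 2. Of the 10 genes, ATF3 thus had the largest gap between the knockout libraries that favoured gRNA 1, -0.204 on the log2 scale for replicate 2 minus replicate 1.

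CEBPB encodes C/EBP beta, a bZIP factor that dimerises with ATF4 at composite elements. It had 45.7 and 44.8 CPM in KO1 and KO2 and 39.4 and 41.0 in WT1 and WT2. Both knockout libraries were above WT and close to each other. The log2 fold change was 0.17 ± 0.06 (SE), and it was between 0.139 and 0.209 over 12 alternatives. CEBPB shares 26.6% of its exonic bases with CEBPB-AS1 on the other strand, and reads over both were not counted.

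Among the effectors in the set, which are CHAC1, TRIB3, SESN2 and DDIT4, CHAC1 differed most. CHAC1 is an enzyme that breaks down glutathione. It had 25.77 CPM in KO1, 28.85 in KO2, 19.96 in WT1 and 22.38 in WT2, from 1541, 1906, 1188 and 1191 counts. Both knockout libraries were above both WT libraries, with means of 27.3 ± 2.17 and 21.2 ± 1.71 CPM (SD, n = 2) and a log2 fold change of 0.37 ± 0.08 (SE). The log2 difference from the WT mean was 0.29 for gRNA 1 and 0.45 for gRNA 2.

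TRIB3 encodes a pseudokinase that binds ATF4 and restrains its activity, as well as AKT. It had 25.1 and 27.5 CPM in KO1 and KO2 and 21.1 and 24.3 in WT1 and WT2. The groups were apart, but by less than the difference between the WT libraries. The log2 fold change was 0.215 ± 0.082 (SE), against a log2 difference of 0.20 between the WT libraries.

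SESN2 and DDIT4 encode inhibitors of the growth kinase mTORC1, SESN2 as a leucine sensor and DDIT4, also named REDD1, through TSC2. SESN2 had 141 and 152 CPM in KO1 and KO2 and 120.3 and 124.5 in WT1 and WT2, a log2 fold change of 0.26 ± 0.06 (SE). DDIT4 had 112.5 CPM in each knockout library and 97.5 and 100.3 in WT1 and WT2, a log2 fold change of 0.19 ± 0.06 (SE). For both genes, each knockout library was above each WT library by more than the difference between the WT libraries.

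**Figure D2:**
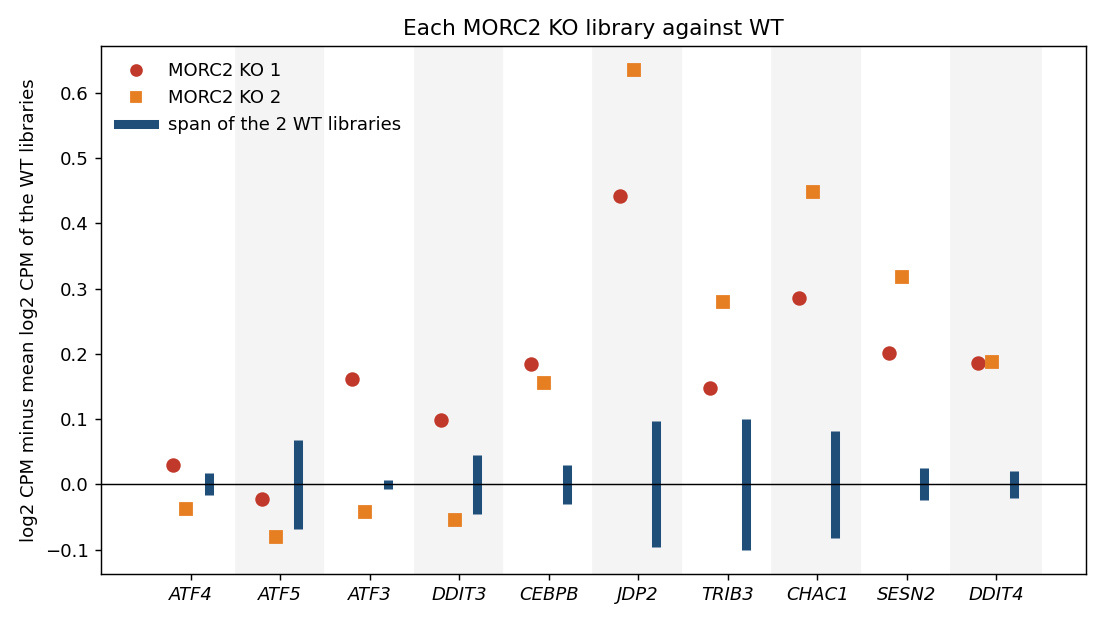
Log2 difference of each MORC2 KO library from the mean of the WT libraries for the 10 regulators, which share those WT libraries. JDP2 lies at 0.44 and 0.64, CHAC1 at 0.29 and 0.45, and DDIT3 on either side of 0 at 0.098 and -0.054.

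The knockout libraries differed from each other in both directions. JDP2, CHAC1, SESN2 and TRIB3 were higher in KO2 than in replicate 1, by 0.19, 0.16, 0.115 and 0.13 on the log2 scale, and DDIT4 by 0.001. ATF3, DDIT3, ATF4, ATF5 and CEBPB were lower there, by 0.204, 0.152, 0.067, 0.059 and 0.029. Thus 5 of the 10 genes were higher in the gRNA 2 library than in the gRNA 1 library, an even split. The median absolute log2 difference between KO1 and KO2 was 0.123 over the 10 genes and 0.120 over all genes tested. Each guide has 1 library, so the difference between the guides has no replicate check. MORC2 was at 51.2 CPM with gRNA 1 and 55.0 with gRNA 2.

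Levels of different genes are comparable only per length. Divided by exonic length, the mean of the WT libraries was 417 CPM per kb for ATF4, 77.7 for ATF3, 56.7 for DDIT4 and 35.4 for SESN2. The next genes were CEBPB at 19.1, CHAC1 at 13.9, ATF5 at 11.7, DDIT3 at 11.4, TRIB3 at 8.24 and JDP2 at 1.36 CPM per kb. ATF4 stood 5.37-fold above ATF3, and TRIB3 6.06-fold above JDP2. In WT, ATF5 and DDIT3 were the only neighbours in this order whose libraries overlapped. Over all 4 libraries, CEBPB and CHAC1 overlapped as well. ATF5 and DDIT3 exchanged ranks 7 and 8 between libraries, and the other 8 genes held the same rank in all 4. JDP2 therefore remained the lowest of the 10 genes per length in the knockout libraries too, at 1.84 and 2.11 CPM per kb. Isoforms were not counted separately.

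**Figure D3:**
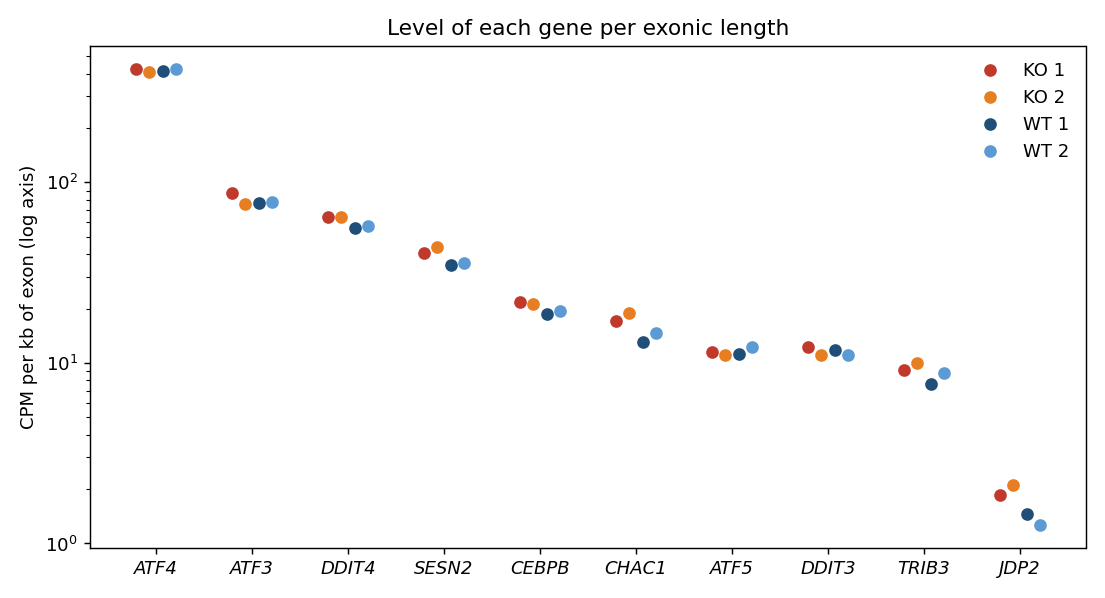
TMM-scaled CPM per kb of exonic length on a log axis for the 10 regulators, a point for each of the 4 libraries. ATF4 is at the top at 417 (WT mean) and JDP2 at the bottom at 1.36, and only ATF5 with DDIT3 and CEBPB with CHAC1 overlap their neighbours.

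The downstream genes of the pathway were followed with 38 ATF4 effector targets, chiefly amino acid synthesis enzymes, amino acid transporters and tRNA synthetases. Of these, 36 passed the filter on low counts (GDF15 and ADM2, at no more than 13 counts in any library, did not). By the edgeR test with adjustment over all genes, 6 rose in MORC2 KO and 0 fell, where 0.588% of all tested genes were called higher and 0.0300% lower. At an unadjusted p under 0.05 the counts were 21 higher and 0 lower, where the shares of all tested genes were 8.14% and 6.17%. DESeq2 called 7 higher and 0 lower. Of the 36, 34 had a positive log2 fold change, as had 51.5% of all tested genes, and 29 had both knockout libraries above both WT libraries, as had 24.1%. The median was 0.172 against 0.005 over all genes tested. Against the WT mean, 8430 of the 16675 genes tested were higher in KO1 and 8753 in KO2, with medians of 0.001 and 0.013. Of the 36 targets, 33 were higher in KO1 with a median of 0.131, and 33 in KO2 with a median of 0.208. These genes were named with earlier results of these data known, so the count is not independent evidence of direction. The count was 3 without WT2 and 22 without KO1, which left gRNA 2 alone. Without KO1, 8.16% of all tested genes were called higher and 12.4% lower, so the counts given without KO1 for this and the following lists stand beside those shares.

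The largest of the 6 was SLC7A11, the cystine and glutamate exchanger that feeds glutathione synthesis. It had 164 and 213 CPM in KO1 and KO2 and 133 and 120 in WT1 and WT2, a log2 fold change of 0.58 ± 0.10 (SE; adjusted p = 0.0192, edgeR). PCK2, the mitochondrial phosphoenolpyruvate carboxykinase, had 36.6 and 44.8 CPM in KO1 and KO2 against 28.1 and 28.5 in WT1 and WT2, with a log2 fold change of 0.52 (adjusted p = 0.0124). The serine synthesis enzyme PSAT1 had 499 and 560 CPM against 404 and 415 (0.37, adjusted p = 0.0333). In each of the 6 genes called, both knockout libraries were above both WT libraries, and the gRNA 2 library was the highest. SLC1A4, a transporter of neutral amino acids (0.44, adjusted p = 0.0363), ASNS, the asparagine synthetase (0.40, adjusted p = 0.0482), and CTH, which makes cysteine from cystathionine (0.32, adjusted p = 0.0318), completed the 6. The calls of PSAT1, SLC1A4, ASNS and CTH were each lost without WT2, and those of PSAT1 and CTH also without WT1. The call of ASNS was also lost with the newer form of the edgeR test, with loess offsets on abundance and with at least 10 counts in every library, and that of SLC1A4 with loess offsets. DESeq2 called 5 of the 6, all but SLC7A11.

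The genes upstream of ATF4 were described with 19 genes for eIF2, its exchange factor eIF2B, the kinases, their adaptors and the phosphatase. The edgeR test called 0 of them in either direction and DESeq2 called 0, with 2 higher and 1 lower at an unadjusted p under 0.05 (8.14% and 6.17% of all tested genes), and the median log2 fold change was -0.007. The smallest p was that of IMPACT, an inhibitor of the kinase GCN2, with a log2 fold change of 0.26 ± 0.06 (SE; adjusted p = 0.0978, edgeR). IMPACT was called higher with library size alone, without the filter on low counts, and without KO1 or KO2. DELE1, which relays mitochondrial stress to HRI, was at 0.165 and EIF2B3, an eIF2B subunit, at -0.172, and neither passed. The 4 kinases were named after their values were seen. The log2 fold changes were 0.017 for EIF2AK1 (HRI), -0.007 for EIF2AK2 (PKR), 0.004 for EIF2AK3 (PERK) and -0.072 for EIF2AK4 (GCN2). Phosphorylation was not measured. Without KO1, 2 of the 19 were called higher and 5 lower, the latter being EIF2B1, EIF2B2, EIF2B3, EIF2B4 and EIF2S1.

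The other bZIP factors, which share dimer partners and binding sites with the members, numbered 39 tested of 42. The edgeR test called 0 of them and DESeq2 called 0. At an unadjusted p under 0.05, 4 were higher and 1 lower (8.14% and 6.17% of all tested genes), and the median log2 fold change was 0.047. The smallest p-values belonged to CREB3L4 (0.29, adjusted p = 0.229, edgeR), BATF3 (-0.51, adjusted p = 0.257) and CEBPD (0.45, adjusted p = 0.283). BATF3, a small factor of the AP-1 type, had between 104 and 135 counts and CEBPD between 101 and 187. Without KO1, 5 of these factors were called higher and 2 lower.

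Among 10 family relatives of the members, 9 were tested. CEBPE, a myeloid factor, had 0 counts in all libraries. The edgeR test and DESeq2 called 0 of the 9, with 2 higher and 0 lower at an unadjusted p under 0.05 (8.14% and 6.17% of all tested genes), and the median log2 fold change was 0.060. Beside TRIB3 at 0.215, its relatives TRIB1 and TRIB2 were at 0.059 and 0.17. Beside SESN2 at 0.26, SESN1 was at -0.009 and SESN3 at 0.06, and beside DDIT4 at 0.19, DDIT4L was at 0.039. CHAC2, the constitutive relative of CHAC1, was at -0.179 with both knockout libraries below WT (adjusted p = 0.357, edgeR), so the paralogs had opposite signs. The relatives of CEBPB were at 0.157 for CEBPA, 0.45 for CEBPD and 0.155 for CEBPG. The differences between a member and its relatives were not tested. Without KO1, CEBPD and CEBPG were called higher and CHAC2 lower.

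SESN2 and DDIT4 act on mTORC1, and the 22 genes of mTORC1 control had a median log2 fold change of 0.020. The edgeR test called 0 and DESeq2 called 0, with 2 higher and 0 lower at an unadjusted p under 0.05 (8.14% and 6.17% of all tested genes). The smallest p was that of EIF4EBP1, a translation repressor that is itself an ATF4 target and is also on the effector list (0.24, adjusted p = 0.108, edgeR), and it was called without the filter on low counts. ITFG2, a subunit of the KICSTOR complex, was at 0.155 and RPTOR, the defining subunit of mTORC1, at -0.103. Without KO1, 3 were called higher and 4 lower.

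The remaining branches of the unfolded protein response run through ATF6 and XBP1. Of 21 genes tested, 8 had a positive and 13 a negative log2 fold change (51.5% and 48.5% of all tested genes), 11 had both knockout libraries below both WT libraries (23.4%), and the median was -0.062. Against the WT mean, 8430 of the 16675 genes tested were higher in KO1 and 8753 in KO2, with medians of 0.001 and 0.013. KO2 is the library that stood farther from the rest. Of the 21 genes, 10 were higher in KO1 with a median of -0.020, and 5 in KO2 with a median of -0.083. The edgeR test and DESeq2 called 0 of them in either direction, with 2 higher and 5 lower at an unadjusted p under 0.05 (8.14% and 6.17% of all tested genes). SDF2L1, CRELD2 and SEC61B, which serve folding and translocation in the endoplasmic reticulum, had the smallest p-values, at -0.31 (adjusted p = 0.112, edgeR), -0.25 (adjusted p = 0.164) and -0.18 (adjusted p = 0.273). HSPA5, the chaperone BiP, was named after its values were seen and was at -0.101 (adjusted p = 0.512). Without the filter on low counts SDF2L1 and CRELD2 were called lower, and without KO1, 10 of the 21 were called lower and 0 higher.

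SESN2, DDIT4 and TRIB3 can also be induced by other stresses, and SESN2 is known as a p53 target. Of 21 p53 targets, the edgeR test and DESeq2 called 0, with 4 higher and 2 lower at an unadjusted p under 0.05 (8.14% and 6.17% of all tested genes) and a median log2 fold change of 0.076. The median was 0.161 for gRNA 1 and 0.005 for gRNA 2, against 0.001 and 0.013 over all genes tested. BBC3, which encodes PUMA, had the smallest p (0.31, adjusted p = 0.118, edgeR) and was called without the filter on low counts, followed by TNFRSF10B at 0.172 and TP53INP1 at 0.33. BBC3 and TNFRSF10B, a death receptor, are also known targets of CHOP. The large T antigen of HEK293T binds p53. Without KO1, 3 were called higher and 3 lower.

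The genes whose pattern over the 4 libraries was most like that of JDP2 were found by the Euclidean distance between mean-centred log2 CPM values with a prior count of 2. They were SPDYE12, PRSS30P, LGALS2, WHAMMP3 and PI15, at distances of 0.0375 to 0.0605. LGALS2 had at most 23 counts in any library and SPDYE12 at most 40. The genes most like DDIT3 were GORAB, ADAMTS6, RAMACL, FCF1P2 and MYNN, at distances of 0.00573 to 0.0187. The points compared share 4 libraries, and none of the 10 genes named is a member or on a list.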

How the data were processed

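The authors used subread 2.0.6 to align 65 bp paired-end reads to T2T-CHM13v2.0 and counted them on strict RefSeq genes with featureCounts 2.0.6. The deposited values are raw counts of read pairs per gene. Per the file headers, multi-mapping reads were counted, strand was ignored and read pairs that overlap several genes were left out. Reads of near-identical copies are therefore uncertain.

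Symbols were matched by gene identifier for 28763 of 28775 genes. Genotypes were compared in R 4.3.3 with edgeR 4.0.16 (filterByExpr, TMM, the older quasi-likelihood F-test, Benjamini-Hochberg adjustment at 0.05 over 16675 genes), as in the study's methods. The SE was obtained by dividing each log2 fold change by the root of its F statistic. Intervals of counting cover counting error only. The code was tested on simulated data. Alternatives included DESeq2 1.42.0, other scaling and filters, a replicate block and leaving out each library.

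The members and the gene lists were chosen with earlier results of these data known. By rule, the genes named are MORC2, the members, their family relatives, in each list every gene that passed and the 3 lowest p-values, and the 5 genes most like JDP2 and most like DDIT3. The cell type markers, the eIF2 kinases, HSPA5, GDF15, ADM2 and the genes named for calls gained without a library fall outside this rule, and all but the markers were chosen after their values were seen.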

Additional observations from a re-analysis of the deposited data

How the results depend on the processing

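The design had 2 libraries per genotype and a biological coefficient of variation of 5.33%. Counting error was between 0.429% for ATF4 and 4.99% for JDP2, so depth bears most on JDP2 among the 10 regulators. Of the 10 regulators, JDP2, CHAC1, SESN2, DDIT4, TRIB3 and CEBPB had positive log2 fold changes in all 12 alternatives other than the crossed pairing described at the end, and ATF4, ATF5, ATF3 and DDIT3 changed sign in at least 1. The cause of the shifts in counts was not tested.

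Over all genes, 98 were called higher and 5 lower. Without the filter on low counts these were 463 and 182, with the replicate block 237 and 42, and with DESeq2 105 and 17. Leaving out 1 library gave 88 to 1397 higher and 9 to 2117 lower, the highest being without MORC2 KO replicate 1, and the single library left in a group was then assumed to vary like the others. Members called numbered 1. They were 0 with loess offsets and 0 with at least 10 counts in every library, 3 without the filter, 2 with the replicate block, and 1 to 5 without 1 library. Genes called over all the lists numbered 6. They were 16 without the filter, 10 with the replicate block and 3 to 59 without 1 library. Of these, 0 were lower by the edgeR test, 2 without the filter, 1 with the replicate block (SDF2L1) and 0 to 25 without 1 library. The ATF4 effector targets called higher were 6, then 12 without the filter and 3 to 22 without 1 library.

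The same replicate numbers did not deviate together (correlation of -0.124), and the numbers are shared in name only. A pairing with the numbers crossed, chosen after the data were seen, called 903 genes higher and 809 lower, 6 members, 33 list genes of which 6 lower, and 20 ATF4 effector targets.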
